A study of Mus musculus with 9 samples.

Results

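The genes described here were 8 epithelial transport genes that together move chloride, bicarbonate, sodium and potassium across the intestinal lining: Cftr, Ano1, Slc12a2, Kcnq1, Kcnn4, Slc26a3, Slc26a6 and Slc9a3. They were chosen by name, as rows whose gene symbol was on this list, and the symbol of each stood on exactly 1 row. They are 8 of the 50600 genes in the count table, and 8 of the 8 passed the filter on low values (1 TPM or more in any library), which left 16208 genes to test. Each of the 8 reached 1 TPM in organoids and in tumoroids alike. The choice bears on cystic growth, in which an epithelium surrounds a fluid-filled lumen.

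RNA-sequencing was performed on 9 mouse libraries in 3 groups of 3. In all, 6 libraries were of wildtype (WT) small intestinal organoids, labelled C57BL/6, which had been cultured for 24 hr in a mixture that was 50% conditioned medium (cM), a culture supernatant cleared by ultracentrifugation, and 50% concentrated organoid medium. By sample title, 3 of them had received cM of tumoroids (T-cM) and 3 had received cM of WT organoids (WT-cM). The other 3 libraries were tumoroids, that is, organoids grown from intestinal tumours of Apc1638N/+ mice, labelled with strain MIX, and kept untreated for 24 hr.

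Apc1638N is a truncating allele of Apc, the Wnt pathway inhibitor whose loss starts intestinal tumours. The study's methods give tumoroids a medium without R-spondin, a Wnt agonist that the organoid medium contains. Tumoroids therefore differed from the organoids in genotype, strain label, tumour origin, medium and, by the study's methods, the age of the mice at once, and these cannot be told apart. The organoids came from 3 mice and the tumoroids from 3 other mice, so each tumoroid library was a separate line. In the study's methods, tumoroid cultures, the source of T-cM, had no R-spondin, while WT-cM was made from medium with R-spondin. T-cM could also be conditioned for longer. The cells of origin, R-spondin and conditioning time of the 2 conditioned media therefore cannot be told apart. In each organoid library the treatment field named the opposite medium to the title. The groups below follow the titles, and every difference between the organoid groups changes sign if the treatment field is the correct one; the 2 groups of 3 libraries are the same either way.

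Fluid secretion in the intestine follows chloride. Slc12a2 encodes NKCC1, which loads chloride into the cell across its basolateral side, Cftr and Ano1 encode channels through which chloride can leave, and the potassium channels Kcnq1 and Kcnn4 keep the cell's voltage negative enough for chloride to go on leaving. Fluid absorption in the small intestine relies on electroneutral uptake at the brush border, where Slc9a3 (NHE3) exchanges sodium for protons and Slc26a3 (DRA) and Slc26a6 (PAT1) exchange chloride for bicarbonate. Secretion is classically placed in the crypt and electroneutral absorption in the villus.

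The libraries held 16541635 to 25170966 counts, and 3 counts in 1 library corresponded to 0.103 to 0.204 CPM (counts scaled by library size and TMM factor). Epithelial markers (Epcam, Cdh1, Krt8, Krt18, Cdx1 and Cdx2) summed to 6893 to 10237 TPM in organoids and to 9668 to 11360 TPM in tumoroids. The 8 enterocyte markers (Alpi, Fabp1, Apoa1, Apoa4, Sis, Lct, Anpep and Vil1) summed to 24626 to 56463 TPM in organoids and to 379 to 728 TPM in tumoroids, and 8 of 8 were lower in tumoroids in both comparisons. Of all genes, 18.5% (WT-cM) and 19.2% (T-cM) were lower. The crypt stem cell markers (Lgr5, Olfm4, Ascl2, Smoc2 and Axin2) summed to 55.7 to 374 TPM in organoids and 424 to 605 TPM in tumoroids. Over WT-cM organoids 4 of 5 were higher, where 23.4% of all genes were. The exception, Olfm4, had a log2 fold change of -2.85 and did not pass (edgeR adjusted p = 0.0978). Fibroblast markers summed to at most 0.33 TPM in any library, with Col3a1 and Lum at 0 in all 9. Immune cell markers summed to 1.11 to 2.79 TPM in organoids and 13.8 to 61.6 TPM in tumoroids, with Cd3e at 0 in all 9. Goblet cell markers (4270 to 5509 against 411 to 2871 TPM) and Paneth cell markers (4793 to 6584 against 607 to 4762 TPM) were lower in sum in every tumoroid library than in any organoid library. Over WT-cM organoids 3 of 5 goblet cell markers were lower and 0 higher, while of 4 Paneth cell markers 1 was lower (Lyz1) and 1 higher (Mmp7). In that comparison 18.5% of all genes were lower and 23.4% higher. Tuft cell markers summed to 15.9 to 17.8 TPM in organoids and 57.7 to 78.4 TPM in tumoroids. Over WT-cM organoids 2 of 4 were higher (Pou2f3 and Avil). Dclk1 and Trpm5 did not pass, at log2 fold changes of -0.71 and -0.54. Gastric epithelium markers summed to 1.63 to 20.9 and 4.87 to 9.05 TPM, and 2 of them, Muc5ac and Muc6, had 0 counts in all organoid libraries. In whole cultures, fewer cells of a type and less RNA per cell cannot be told apart, and the part of these marker shifts in the results on transport genes was not tested.

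The 8 genes lie on 6 chromosomes (Gencode mouse release 21, GRCm38). Cftr spans chr6:18170687-18322768 on the plus strand, Slc26a3 chr12:31390871-31473917 (plus), Slc26a6 chr9:108853283-108913049 (plus) and Slc9a3 chr13:74121457-74169442 (plus). The following 3 are on chromosome 7: Kcnn4 at chr7:24370263-24386690 (plus), Kcnq1 at chr7:143106362-143427042 (plus) and Ano1 at chr7:144588549-144751974 (minus). All 8 are protein coding, with 7 merged exon blocks in Kcnn4 and 18 to 29 in the others. Antisense genes share exon bases with a member, Gm15592 with Cftr (129 bases) and Kcnq1ot1 with Kcnq1 (121 bases), and the strand setting of the counting is not given in the sources used here. Gm15592 had at most 2 counts and Kcnq1ot1 at most 4 counts in any library, against at least 673 counts for either partner.

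The RefSeq promoter windows of 3 members are shown because the genes behaved differently between organoids and tumoroids: Cftr was not measurably different, Ano1 was higher and Slc26a3 was lower in tumoroids. Each is the 250 bases before the RefSeq start (GRCm38.p6), 5′ to 3′ on the gene's own strand, with CpG dinucleotides, the sites of DNA methylation in mammals, in capitals.
Cftr, chr6:18170437-18170686, plus strand: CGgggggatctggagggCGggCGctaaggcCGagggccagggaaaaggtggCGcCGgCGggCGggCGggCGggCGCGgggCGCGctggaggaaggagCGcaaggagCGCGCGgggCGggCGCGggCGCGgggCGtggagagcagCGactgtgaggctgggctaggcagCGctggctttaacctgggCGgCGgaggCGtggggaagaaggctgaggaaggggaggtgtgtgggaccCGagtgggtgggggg
Ano1, chr7:144738574-144738823, minus strand: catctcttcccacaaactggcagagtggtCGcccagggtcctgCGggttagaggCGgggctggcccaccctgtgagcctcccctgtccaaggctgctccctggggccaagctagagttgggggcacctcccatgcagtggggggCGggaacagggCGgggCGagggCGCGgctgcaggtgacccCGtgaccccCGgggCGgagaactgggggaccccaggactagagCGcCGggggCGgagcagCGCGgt
Slc26a3, chr12:31437969-31438218, plus strand: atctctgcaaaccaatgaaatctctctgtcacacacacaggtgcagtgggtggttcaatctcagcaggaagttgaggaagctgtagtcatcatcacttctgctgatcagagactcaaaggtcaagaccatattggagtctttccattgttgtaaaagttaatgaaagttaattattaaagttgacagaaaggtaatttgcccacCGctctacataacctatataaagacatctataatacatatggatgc
The Cftr window was 76.4% G and C with 30 CpG, a number reached by 5.94% of 32851 RefSeq promoters of the same length. The Ano1 window was 72.0% G and C with 16 CpG, which 25.4% of promoters reached. The Slc26a3 window was 38.8% G and C with 1 CpG, and 18.8% of promoters had at most 1. The medians over all promoters were 52.4% and 6 CpG. The 3 further members with a RefSeq promoter had 19 CpG (Slc9a3), 9 CpG (Slc26a6) and 6 CpG (Kcnn4), so the 3 absorptive genes ranged from 1 to 19 and no level of CpG was shared by them. Motifs were searched on both strands of the 6 windows: CTTTGAT (TCF/LEF), TTTATNG (CDX), CAAAGTNCA (HNF4), TGANTCA (AP-1), GGAATG (TEAD) and TGTTTAC (FOX). The 1 match was a TEAD motif in Kcnn4, 63 to 58 bases before the start, and this motif stood in 12.6% of all promoters. The RefSeq starts of Slc26a3, Slc26a6 and Ano1 lie inside the Gencode gene bounds, so other starts of these genes are not covered.

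By mean TPM, a measure per transcript length, the absorptive Slc26a6 was the highest of the 8 in both organoid groups and the secretory Slc12a2 was the highest in tumoroids. In WT-cM organoid 1, however, Slc12a2 (149.95 TPM) was above Slc26a6 (125 TPM). In WT-cM organoids the order of mean TPM was Slc26a6 at 155 ± 28.5, Slc26a3 at 98.8 ± 9.08, Slc12a2 at 88.2 ± 54.1, Slc9a3 at 81.8 ± 24.0, Cftr at 59.8 ± 13.2, Kcnq1 at 49.4 ± 12.4, Kcnn4 at 11.2 ± 7.66 and Ano1 at 5.08 ± 1.38 (SD, n = 3). Slc26a6 was above Slc26a3 in every library of that group, and Kcnq1 was above Kcnn4 in every library, whereas the ranges of neighbours from Slc26a3 down to Kcnq1 overlapped. In T-cM organoids the order was the same for the first 6, and Ano1 (10.4 ± 3.64 TPM) and Kcnn4 (9.57 ± 6.72 TPM), which overlapped, changed places. In tumoroids the order was Slc12a2 at 488 ± 120.2, Kcnq1 at 291 ± 21.8, Cftr at 85.3 ± 19.2, Ano1 at 81.4 ± 13.8, Kcnn4 at 37.2 ± 21.4, Slc26a6 at 20.7 ± 21, Slc9a3 at 13.5 ± 11.3 and Slc26a3 at 0.93 ± 0.32 TPM (SD, n = 3). Cftr and Ano1 overlapped there, as did Kcnn4 with Slc26a6 and Slc26a6 with Slc9a3.

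The genes were then compared one by one, by CPM, between tumoroids and the organoid groups with edgeR's quasi-likelihood test and Benjamini-Hochberg adjustment over the 16208 genes. Against WT-cM organoids, 3 members were higher in tumoroids (Slc12a2, Kcnq1, Ano1), where 23.4% of all genes tested were higher, and 3 were lower (Slc26a3, Slc26a6, Slc9a3), where 18.5% were lower. Against T-cM organoids the same 3 were higher and the same 3 lower, beside 25.3% and 19.2% of all genes. The CPM ranges of the groups did not overlap for these 6 in either comparison, which also held for 50.7% (WT-cM) and 53.9% (T-cM) of all genes. Both comparisons use the same tumoroid libraries, so they are not independent, and their values are given side by side.

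**Figure D1:**
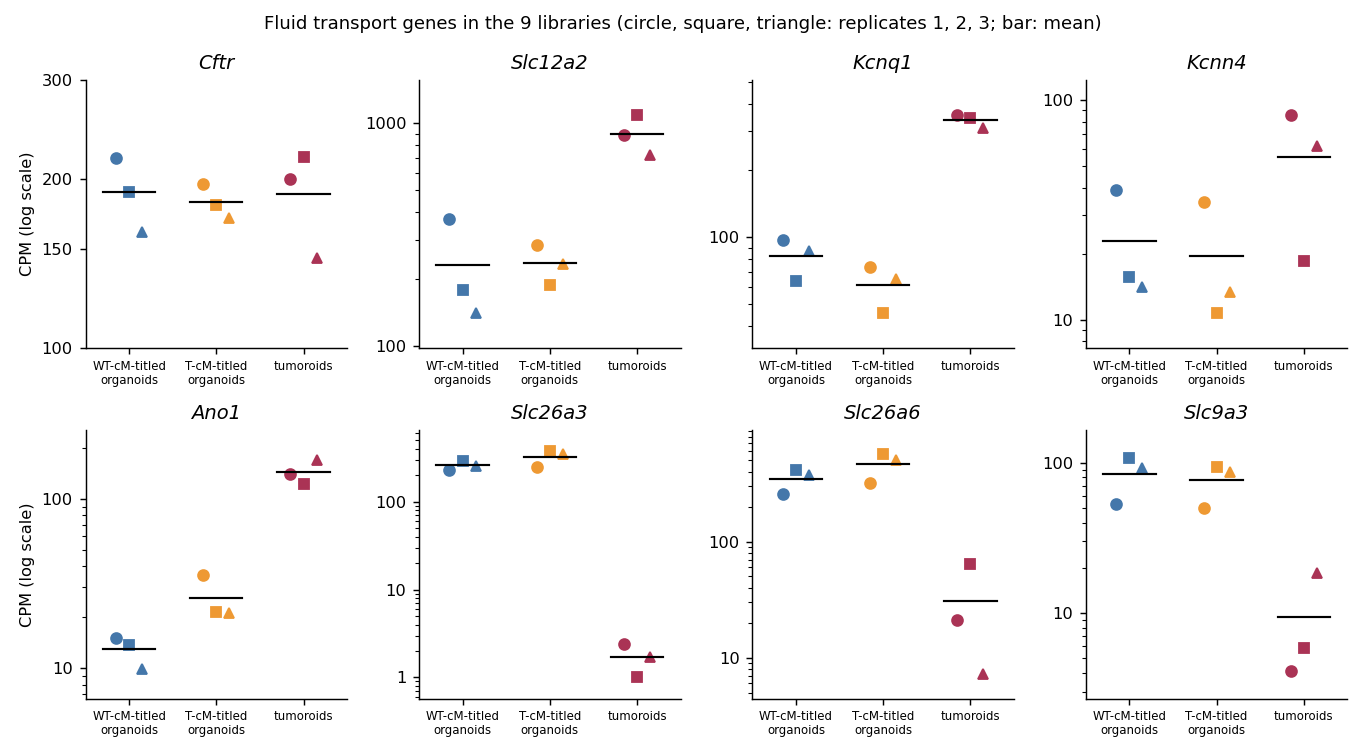
CPM (counts scaled by library size and TMM factor, log axis with its own range in each panel) of the 8 transport genes in the 9 libraries. Points are libraries (circle, square and triangle for replicates 1, 2 and 3) and bars are group means. Tumoroids lie above all organoid libraries for Slc12a2, Kcnq1 and Ano1, below all of them for Slc26a3, Slc26a6 and Slc9a3, and overlap with them for Cftr.

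The transcript of the chloride loader was higher in tumoroids. Slc12a2 (chr18:57878678-57946821, plus strand) stood at 372, 178 and 141 CPM in WT-cM organoids (replicates 1, 2 and 3), at 284, 188 and 233 CPM in T-cM organoids and at 886, 1090.4 and 721 CPM in tumoroids. The lowest tumoroid library was thus above the highest organoid library, replicate 1 in WT-cM. Tumoroids differed by a log2 fold change of 1.97 ± 0.36 (SE) from WT-cM organoids, which is 3.91-fold (edgeR adjusted p = 0.00184), and by 1.94 ± 0.36 from T-cM organoids (adjusted p = 0.00193).

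Of the chloride exit channels, Ano1 was higher in tumoroids and Cftr was not measurably different. Ano1, a calcium-activated chloride channel (TMEM16A), had 15.2, 13.6 and 9.92 CPM in WT-cM organoids, 35.3, 21.6 and 21.1 CPM in T-cM organoids and 141, 122 and 170 CPM in tumoroids. The 3 groups did not overlap with one another. The log2 fold change of tumoroids was 3.48 ± 0.26 over WT-cM organoids, which is 11.2-fold (edgeR adjusted p = 1.51e-05), and 2.47 ± 0.25 over T-cM organoids, which is 5.54-fold (adjusted p = 6.93e-05). Outside the epithelium Ano1 marks interstitial cells of Cajal, the gut's pacemaker cells. Markers of these cells and of smooth muscle (Kit, Etv1, Myh11, Des and Actg2) summed to 2.49 to 3.40 TPM in organoids and 3.29 to 5.51 TPM in tumoroids. Ano1 itself had 3.63 to 14.6 TPM in organoids and 73.0 to 97.2 TPM in tumoroids. The part of these cells in the Ano1 level was not tested.

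Cftr, the channel through which cyclic AMP drives chloride secretion, had 218, 189 and 161 CPM in WT-cM organoids, 196, 180.0 and 171 CPM in T-cM organoids and 200.04, 218 and 145 CPM in tumoroids. The 3 groups overlapped throughout, with the lowest library a tumoroid one. The log2 fold change of tumoroids over WT-cM organoids was -0.01, with a 95% interval of -0.42 to 0.40 (edgeR adjusted p = 0.969), and over T-cM organoids it was 0.04, with an interval of -0.37 to 0.45 (adjusted p = 0.875). The scale matters for so small a value: the median log2 change of all genes in tumoroids over WT-cM organoids was 0.15 under TMM scaling and 0.52 on log2(TPM + 1), where Cftr came to 0.50 (limma adjusted p = 0.0671). In tumoroids over T-cM organoids these medians were 0.16 and 0.51. By TMM-scaled counts Cftr was therefore 0.16 (WT-cM) and 0.12 (T-cM) below the median gene on the log2 scale. On log2(TPM + 1), 6834 genes were higher and 1714 lower in tumoroids than in WT-cM organoids, where the counts gave 3792 and 3004.

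The potassium channel Kcnq1 was higher in tumoroids, and Kcnn4 did not pass the test. Kcnq1, a voltage-gated channel, had 96.8, 63.8 and 87.0 CPM in WT-cM organoids, 73.7, 45.7 and 64.7 CPM in T-cM organoids and 356, 346 and 312 CPM in tumoroids. Its tumoroid libraries lay close together and far above all organoid libraries. Its log2 fold change was 2.03 ± 0.22 over WT-cM organoids, which is 4.09-fold (edgeR adjusted p = 8.38e-05), and 2.46 ± 0.22 over T-cM organoids, which is 5.50-fold (adjusted p = 3.63e-05). In intestinal crypts the Kcnq1 channel works with the beta subunit Kcne3, whose log2 fold change over WT-cM organoids was 0.89 (adjusted p = 0.228) and which was named after its values were seen. The ratio of Kcnq1 to Kcne3 TPM was 0.615 to 2.02 in the organoid libraries and 1.83, 6.74 and 1.47 in tumoroids, so the ranges overlapped and tumoroid 2 stood out.

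Kcnn4, a calcium-activated potassium channel, had 39.1, 15.6 and 14.1 CPM in WT-cM organoids, 34.4, 10.7 and 13.4 CPM in T-cM organoids and 86.0, 18.6 and 61.6 CPM in tumoroids. Tumoroid 2 lay within the organoid range, and the other tumoroids lay above it. The log2 fold change was 1.27 over WT-cM organoids, with a 95% interval of -0.14 to 2.68 (edgeR adjusted p = 0.134), and 1.5 over T-cM organoids, with an interval of 0.08 to 2.92 (adjusted p = 0.0808). Without tumoroid 2 it passed in both comparisons, at 1.67 (adjusted p = 0.0373) and 1.90 (adjusted p = 0.0214), and against T-cM organoids it also passed without T-cM organoid 1, at 2.20 (adjusted p = 0.0301). Against WT-cM organoids the value was 1.88 without WT-cM organoid 1 (adjusted p = 0.0573) and 0.81 without tumoroid 1 (adjusted p = 0.379). Tumoroid 2 also had the lowest summed goblet cell markers (411 TPM, against 1928 and 2871 in the other tumoroids) and Paneth cell markers (607 TPM, against 4291 and 4762). It was likewise lowest for enteroendocrine markers (99.3 TPM, against 782 and 188) and crypt stem cell markers (424 TPM, against 605 and 582); the immune cell markers, which Kcnn4-expressing blood cells would carry, summed to 13.8, 32.3 and 61.6 TPM in tumoroids 1, 2 and 3. The part of these cells in the Kcnn4 level was not tested.

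All 3 absorptive exchangers were lower in tumoroids. Slc26a3, the main apical chloride-bicarbonate exchanger of the lower gut, had 229, 290.0 and 259 CPM in WT-cM organoids, 247, 375 and 352 CPM in T-cM organoids and 2.40, 1.00 and 1.72 CPM in tumoroids. These tumoroid levels rested on 53, 27 and 50 counts, well above the 3 counts taken as the limit of detection. Its log2 fold change was -7.25 ± 0.35 over WT-cM organoids, a 152-fold lower level (edgeR adjusted p = 2.36e-06), and -7.58 ± 0.35 over T-cM organoids, a 191-fold lower level (adjusted p = 2.26e-06). The size depended on the scale: on log2(TPM + 1) these values were -5.70 and -6.03, and on log2(TPM + 0.1) -6.63 and -6.96.

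Slc26a6, which exchanges chloride for bicarbonate and also carries oxalate, had 258, 411 and 372 CPM in WT-cM organoids, 320.0, 564 and 504 CPM in T-cM organoids and 21.2, 64.5 and 7.18 CPM in tumoroids. Tumoroid 2 was the highest of its group for this gene and still below every organoid library. The log2 fold change was -3.49 ± 0.67 over WT-cM organoids, 11.2-fold lower (edgeR adjusted p = 0.00246), and -3.90 ± 0.68 over T-cM organoids, 14.95-fold lower (adjusted p = 0.00144). Without tumoroid 2 these values were -4.64 and -5.06, and without tumoroid 3 they were -3.03 and -3.45. The TPM ratio of Slc26a6 to Slc26a3 was 1.33 to 1.77 in the organoid libraries and 10.4, 75.4 and 4.90 in tumoroids, so the fall was unequal between these family members.

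Slc9a3, the sodium-proton exchanger of the brush border, had 53.4, 108 and 92.8 CPM in WT-cM organoids, 50.3, 94.2 and 87.5 CPM in T-cM organoids and 4.12, 5.84 and 18.4 CPM in tumoroids. Here tumoroid 3 was the highest of the tumoroids and below every organoid library. Its log2 fold change was -3.16 ± 0.55 over WT-cM organoids, 8.91-fold lower (edgeR adjusted p = 0.00144), and -3.02 ± 0.55 over T-cM organoids, 8.13-fold lower (adjusted p = 0.00174). Without tumoroid 3 they were -4.09 and -3.97. These 3 genes were lower together with the 8 enterocyte markers listed above, whose median log2 fold change was -8.13 over WT-cM organoids and -7.94 over T-cM organoids.

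**Figure D2:**
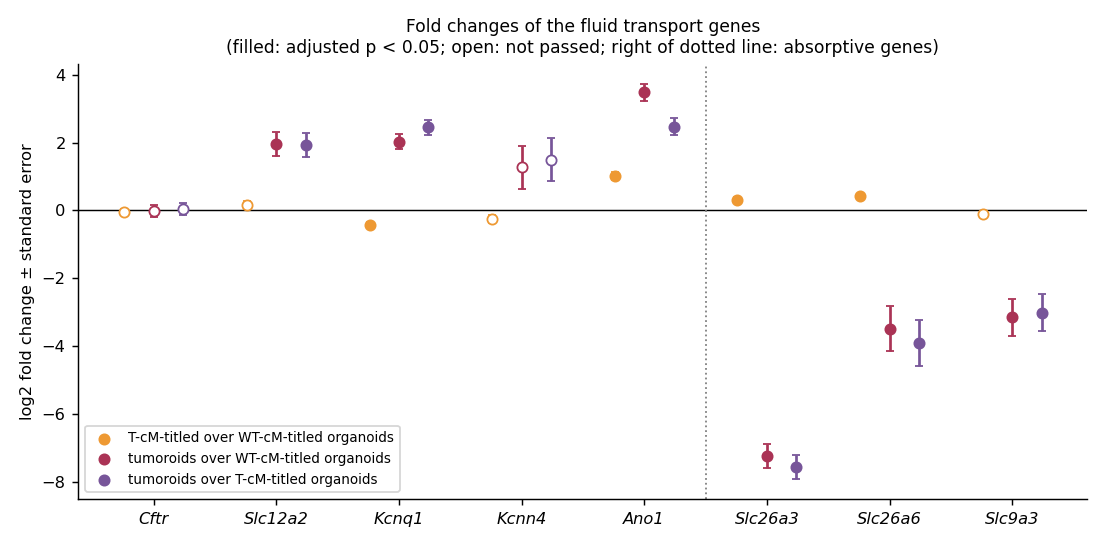
Log2 fold change with its standard error for the 8 genes in the 3 comparisons; filled points passed an adjusted p of 0.05 in edgeR and open points did not. The tumoroid changes run from -7.58 (Slc26a3) to 3.48 (Ano1), and the changes between organoid groups from -0.42 (Kcnq1) to 1.01 (Ano1).

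The sum over each side of transport gave the same picture per library. The 5 secretory genes (Cftr, Slc12a2, Kcnq1, Kcnn4 and Ano1) summed to 155 to 312 TPM in the 6 organoid libraries and to 876 to 1131 TPM in tumoroids. The 3 absorptive genes (Slc26a3, Slc26a6 and Slc9a3) summed to 276 to 494 TPM in organoids and to 19.5, 53.8 and 32.2 TPM in tumoroids 1, 2 and 3. The log2 ratio of secretory to absorptive TPM was -0.71 ± 0.77 in WT-cM organoids, -1.002 ± 0.672 in T-cM organoids and 4.92 ± 0.62 in tumoroids (SD, n = 3). WT-cM organoid 1 was the organoid library in which the secretory sum was the larger, by 1.13-fold, and T-cM organoid 1 joined it when CPM replaced TPM (log2 ratio 0.015) or when Cftr and Slc12a2 were set against Slc26a3 and Slc9a3 (0.22). In tumoroids the secretory TPM sum was larger by 48.5-, 21.01- and 27.2-fold. The groups of genes were set by their textbook roles, and no test was made of the ratio.

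**Figure D3:**
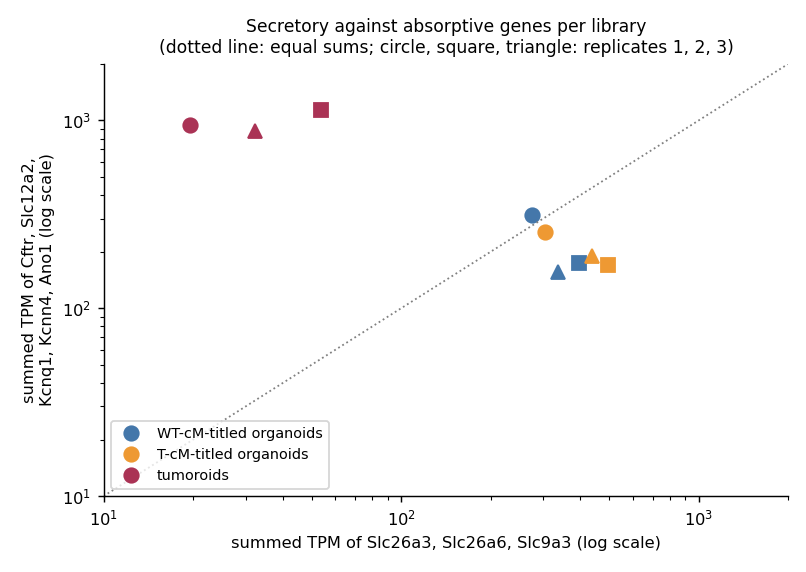
Summed TPM of the 5 secretory genes against that of the 3 absorptive genes in each library, on log axes, with a dotted line where both are equal. Tumoroids lie at 876 to 1131 TPM against 19.5 to 53.8 TPM, and 5 of the 6 organoid libraries lie below the line.

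Between T-cM and WT-cM organoids, Ano1 had the largest change of the 8. With organoid number as a block, 3 members were higher in T-cM organoids (Ano1, Slc26a6 and Slc26a3), where 5.03% of all genes were higher, and 1 was lower (Kcnq1), where 5.05% were lower. Only Ano1 also passed an absolute log2 fold change of 1, as did 1.10% of genes, and only Ano1 had groups that did not overlap, as did 10.4% of genes. No member passed when organoid number was left out of the fit (0 of 8 in edgeR, with 1 of 8 at an unadjusted p under 0.05), in limma on log2(TPM + 1) (0 of 8, with 4 of 8 unadjusted) or without replicate 2 (0 of 8, with 4 of 8 unadjusted). In the same fit several cell type markers were lower in T-cM: 3 of 4 Paneth cell markers (Mmp7, Ang4 and Itln1), 3 of 4 enteroendocrine markers (Chga, Chgb and Gcg), 2 of 5 crypt stem cell markers (Ascl2 and Smoc2), 1 of 5 goblet cell markers (Spink4) and 3 of 8 enterocyte markers (Fabp1, Lct and Anpep), with the enterocyte marker Alpi and the gastric marker Tff1 (log2 fold change 1.07, adjusted p = 0.0348) higher. The summed Paneth markers were 4793 to 5660 TPM in T-cM and 5510 to 6584 TPM in WT-cM organoids, and the summed enterocyte markers 25999 to 37772 and 24626 to 56463 TPM. The part of these cell types in the members' changes was not tested.

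Ano1 was higher in T-cM in 3 of 3 pairs of libraries that share an organoid number, with log2 ratios of 1.22, 0.66 and 1.09. Its fitted log2 fold change was 1.01 ± 0.12 (SE), 2.02-fold (edgeR adjusted p = 8.6e-07). Without the block it was 1.02 (adjusted p = 0.688), and without replicate 2 it was 1.16 (adjusted p = 0.088), so the call was lost. Its passing of a log2 fold change of 1 was also narrow: the value was 0.89 without replicate 1, 0.96 without replicate 3, 0.99 with upper-quartile factors and 0.89 on log2(TPM + 1). The markers of interstitial cells of Cajal and smooth muscle summed to 2.49 to 3.00 TPM in T-cM and 2.69 to 3.40 TPM in WT-cM organoids. The part of these cells in the Ano1 change was not tested.

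The anion exchangers were slightly higher in T-cM. Slc26a6 was higher in 3 of 3 pairs (log2 ratios 0.31, 0.46 and 0.44), with a fitted log2 fold change of 0.41 ± 0.07 (edgeR adjusted p = 0.00034). Slc26a3 was higher in 3 of 3 pairs (0.11, 0.37 and 0.45), with 0.32 ± 0.08 (adjusted p = 0.008), a call lost in limma voom and without replicate 3 (adjusted p = 0.205). Kcnq1 was lower in 3 of 3 pairs (-0.39, -0.48 and -0.43), with -0.42 ± 0.08 (adjusted p = 0.00118). In 41.2% of all genes the 3 pairs shared 1 direction, as they did here also for Slc9a3 and Kcnn4, which did not pass.

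Slc9a3 had a fitted log2 fold change of -0.11, with a 95% interval of -0.28 to 0.06 (edgeR adjusted p = 0.499). Kcnn4 had -0.24, with an interval of -0.48 to -0.01 (adjusted p = 0.214). Cftr had -0.03, with an interval of -0.19 to 0.13 (adjusted p = 0.878), which holds no change as large as that of Ano1. Slc12a2 was lower in T-cM in pair 1 (-0.39), near equal in pair 2 (0.08) and higher in pair 3 (0.73), with a fitted 0.15 (adjusted p = 0.514). Without replicate 1 Slc12a2 passed at 0.42 (adjusted p = 5.34e-05).

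**Figure D4:**
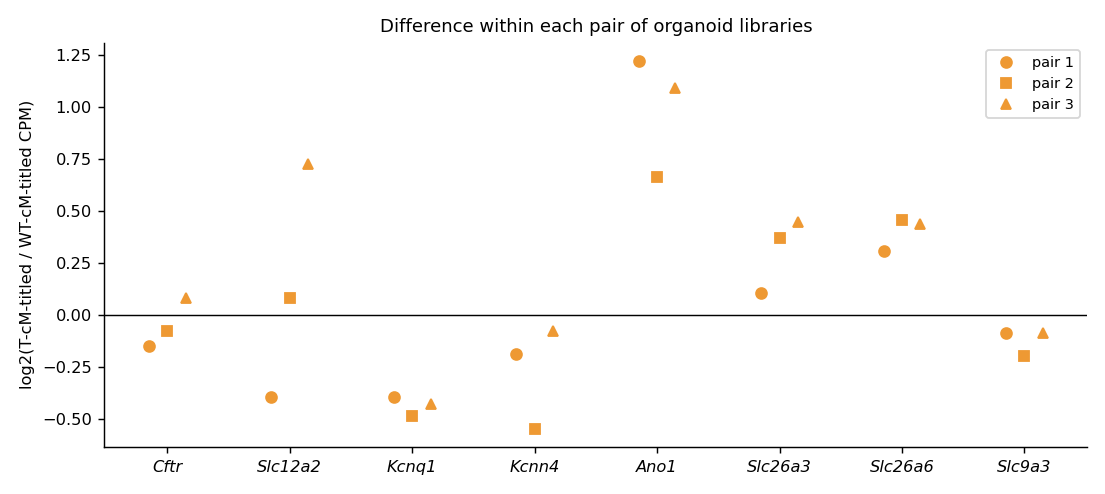
Log2 ratio of T-cM to WT-cM CPM within each pair of organoid libraries that share a number, for the 8 genes. Ano1 lies at 0.66 to 1.22 in the 3 pairs, Kcnq1 at -0.48 to -0.39, and Slc12a2 is spread from -0.39 to 0.73.

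Organoid line 1 stood apart from lines 2 and 3 for several members in both media. Slc12a2 had 372 and 284 CPM in line 1, against 141 to 233 CPM in the other 4 organoid libraries. Kcnn4 had 39.1 and 34.4 CPM in line 1, against 10.7 to 15.6 CPM in the others. Absorptive genes ran the other way in line 1: Slc9a3 had 53.4 and 50.3 CPM, against 87.5 to 108 CPM, and Slc26a6 had 258 and 320.0 CPM, against 372 to 564 CPM. Line 1 also had the highest summed crypt stem cell markers (374 and 244 TPM, against 55.7 to 76.2 TPM) and the lowest summed enterocyte markers (24626 and 25999 TPM, against 32724 to 56463 TPM). The part of these cell types in the line difference was not tested. Without the line 1 libraries 5 members passed between the media, 4 higher and 1 lower, beside 8.36% and 9.36% of all genes.

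The genes whose pattern over the 9 libraries was closest to each member were taken by the root mean square difference of centred log2 CPM. For Cftr they were Gtf2h2 (0.08) and Dbt (0.08), and for Kcnq1 Hlcs (0.16) and 1700030K09Rik (0.18). For Slc12a2 they were Tulp3 (0.15) and Zfp275 (0.21). For Slc26a6 they were Chp2 (0.23) and Maoa (0.32), for Slc26a3 Gm11437 (0.35) and D130043K22Rik (0.36), and for Slc9a3 4833407H14Rik (0.32) and Slc25a45 (0.33). Kcnn4 was nearest to Rasa3 (0.28) and Cep55 (0.34), and Ano1 to Slc35e4 (0.28) and 4930432K21Rik (0.29). No 2 members shared a nearest gene. Chp2 had 324 to 496 CPM in organoids and 24.3, 88.0 and 10.8 CPM in tumoroids, with tumoroid 2 highest as for Slc26a6.

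The wider transport machinery was read from 6 lists of 73 further genes, of which 64 were tested. Of these, 6 passed the filter on low values through tumoroids alone (Slc26a9, Kcne2, Scnn1b, Scnn1g, Slc9a3r2 and Aqp5) and 4 through organoids alone (Clca4a, Aqp7, Aqp8 and Car4). Such genes had to differ, so the counts below are over the 54 others, a restriction made after the values were seen. In tumoroids over WT-cM organoids 8 of the 54 were higher and 28 lower, against 23.4% and 18.5% of all genes, with a median log2 fold change of -0.81 beside 0.15 for all genes. Over T-cM organoids 8 were higher and 28 lower, with a median of -1.05 beside 0.16. Between T-cM and WT-cM organoids 10 of the 54 were higher and 6 lower in T-cM, against 5.03% and 5.05% of all genes, with a median of 0.05. Of all 64, 17 passed between the media, 0 without the block (8 at an unadjusted p under 0.05, edgeR), 28 without organoid line 1, 0 without line 2 and 6 without line 3. Calls over all genes moved in the same way, with 816 higher and 818 lower in the full fit, 1355 and 1517 without line 1, 1 and 0 without line 2, and 296 and 237 without line 3. None of the changes between media given below passed without line 2.

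In edgeR, 7 of 9 other genes of chloride channel and related families were lower in tumoroids than in WT-cM organoids. Of the 9, 0 were higher, also at an unadjusted p under 0.05. Of all genes, 18.5% were lower and 23.4% higher. The 7 were Clcn2, Clcn3, Clca1, Clca4b, Ano6, Ano7 and Ano9, and not all of these encode chloride channels. Slc26a9, an anion transporter best known from stomach and airway and admitted through tumoroid 3, had 0 counts in every organoid library and 27, 2 and 132 counts in tumoroids. Clca4b, a secreted protein of the calcium-activated chloride channel regulator family, fell from 487 ± 171 to 2.62 ± 1.10 CPM (log2 fold change -7.52 ± 0.43, edgeR adjusted p = 5.03e-06). Its relative Clca4a, admitted through organoids alone, had 4.18, 9.18 and 5.67 CPM in WT-cM organoids and 0.136, 0.149 and 0.172 CPM in tumoroids, and was higher in T-cM than in WT-cM organoids by 0.74 (edgeR adjusted p = 0.00351). Clcn2, a chloride channel gated by voltage, went from 204 ± 4.42 to 48.8 ± 5.86 CPM (log2 fold change -2.06, adjusted p = 1.35e-05). Ano1 was thus higher in tumoroids where 7 of these 9 genes, not all of them channels, were lower. Lrrc8a, also of the 9, did not pass (log2 fold change 0.44, edgeR adjusted p = 0.194).

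Of 7 other potassium channel and sodium pump genes, 2 were higher and 3 lower in tumoroids than in WT-cM organoids (all genes: 23.4% and 18.5%). Fxyd3, a small modulator of the sodium pump, rose from 16.6 ± 2.70 to 164 ± 82.2 CPM (log2 fold change 3.30 ± 0.38, edgeR adjusted p = 0.000136). The potassium channel Kcnk5 fell from 101 ± 25.9 to 26.5 ± 13.8 CPM (-1.93, adjusted p = 0.00357), opposite in direction to Kcnq1. Between organoid groups 3 were higher and 0 lower in T-cM (all genes: 5.03% and 5.05%), among them the pump subunit Atp1b3 (0.68, adjusted p = 9.73e-05) and the channel Kcnk6 (0.53, adjusted p = 0.00798).

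Of 8 other sodium, bicarbonate and anion transporters, 1 was higher and 3 lower in tumoroids than in WT-cM organoids (all genes: 23.4% and 18.5%). The sodium-bicarbonate cotransporter Slc4a7 fell from 275 ± 33.8 to 101 ± 27.0 CPM (-1.45 ± 0.21, edgeR adjusted p = 0.000579). Scnn1b and Scnn1g, the beta and gamma subunits of the epithelial sodium channel, had 0 counts in all 6 organoid libraries and were admitted through tumoroids alone, so their levels are given without a test. Scnn1b had 3.53, 1.75 and 1.82 CPM in tumoroids, at least 12.98-fold above the level that 3 counts per library would give in WT-cM organoids. Scnn1g had 0.499, 0.744 and 1.99 CPM in tumoroids, at least 5.91-fold above that level. Between organoid groups Slc26a2, a sulphate transporter of the Slc26a3 family, and Slc4a7 were higher in T-cM, by 0.66 (adjusted p = 3.94e-06) and 0.38 (adjusted p = 0.000743), and 0 were lower (all genes: 5.03% higher and 5.05% lower).

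Of 12 scaffold and kinase genes of transport, 2 were higher and 5 lower in tumoroids than in WT-cM organoids (all genes: 23.4% and 18.5%). Slc9a3r1 (NHERF1), which tethers Slc9a3 and Cftr at the brush border, fell from 435 ± 71.3 to 145 ± 40.0 CPM (-1.58 ± 0.26, edgeR adjusted p = 0.00093). Pdzd3, another PDZ scaffold of Slc9a3, fell from 48.6 ± 9.13 to 1.19 ± 0.89 CPM (-5.35, or -6.15 without tumoroid 2, adjusted p = 4.5e-05). Slc9a3r2 (NHERF2), admitted through tumoroids alone, had 0.495, 0.669 and 0.797 CPM in WT-cM organoids and 7.52, 9.52 and 11.4 CPM in tumoroids. Between organoid groups 4 were higher and 0 lower in T-cM (all genes: 5.03% and 5.05%), among them Slc9a3r1 (0.42, adjusted p = 0.000354) and Prkg2, the cyclic GMP-dependent kinase that acts on Cftr (0.38, adjusted p = 0.00216).

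Of 8 secretagogue hormone and receptor genes, 6 were lower and 0 higher in tumoroids than in WT-cM organoids in edgeR (1 higher, P2ry2, at an unadjusted p under 0.05). Of all genes, 18.5% were lower and 23.4% higher. Vipr1, the receptor for the secretory peptide VIP, fell from 212 ± 35.3 to 8.89 ± 3.26 CPM (-4.57 ± 0.30, adjusted p = 8.73e-06). Guca2b, which encodes uroguanylin, fell from 540.2 ± 264 to 14.2 ± 6.22 CPM (-5.25, adjusted p = 8.21e-05), and its receptor Gucy2c fell from 584 ± 62.6 to 150.1 ± 37.4 CPM (-1.96, adjusted p = 8.32e-05). Between organoid groups 2 were lower in T-cM (all genes: 5.05%), the acetylcholine receptor Chrm3 (-0.63, adjusted p = 0.0055) and the nucleotide receptor P2ry2 (-0.51, adjusted p = 0.0135), both of which signal through calcium.

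Of 10 water channel and carbonic anhydrase genes, 3 were higher and 4 lower in tumoroids than in WT-cM organoids (all genes: 23.4% and 18.5%). Aqp11, a water channel of internal membranes, fell from 98.5 ± 16.7 to 12.7 ± 1.02 CPM (-2.96 ± 0.17, edgeR adjusted p = 4.79e-06). Car8, a carbonic anhydrase relative without enzyme activity, fell from 9.47 ± 0.70 to 1.85 ± 0.77 CPM (-2.36, adjusted p = 0.000492). Car4, the carbonic anhydrase anchored at the brush border and admitted through organoids alone, had 1.04 to 1.90 CPM in WT-cM organoids, 0.037 CPM in tumoroid 2 and 0 in the other tumoroids. Between organoid groups 1 was higher and 4 lower in T-cM (all genes: 5.03% and 5.05%), among them the water channels Aqp4 (-1.49 ± 0.15, adjusted p = 4e-08) and Aqp1 (-0.70 ± 0.09, adjusted p = 3.2e-06). Aqp1 was the more abundant of these in tumoroids, at 160, 370 and 196 CPM, against 35.3 to 116 CPM in the organoid libraries.

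**Figure D5:**
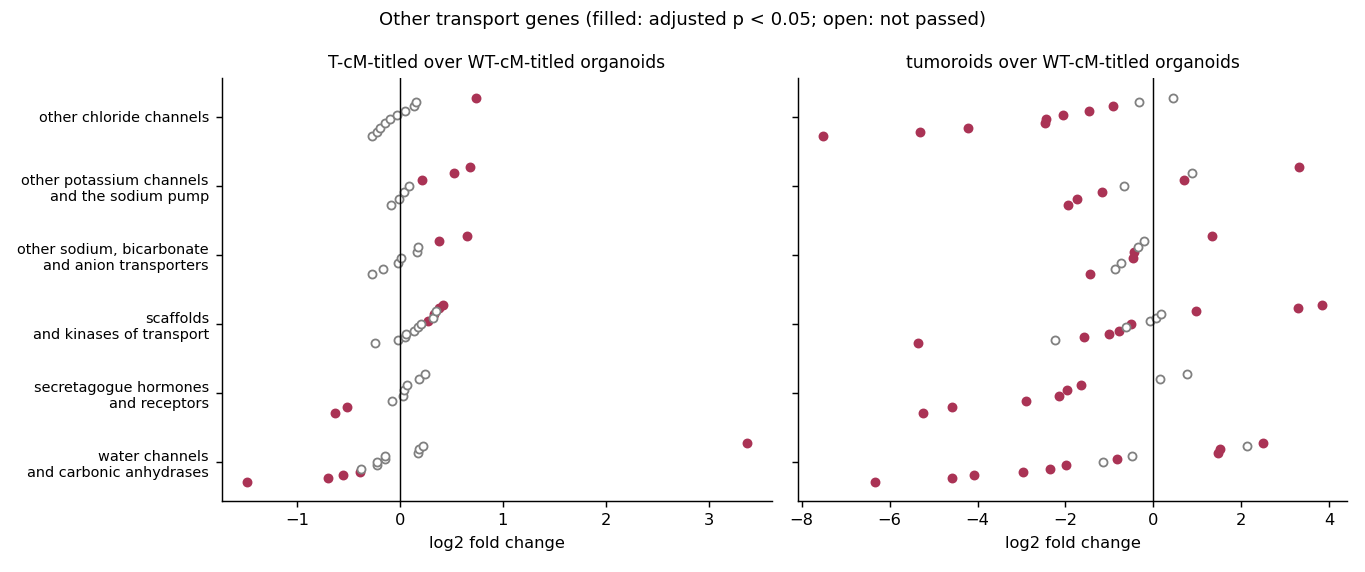
Log2 fold change of the tested genes of the 6 transport lists between organoid groups (left) and in tumoroids over WT-cM organoids (right), on different scales; filled points passed an adjusted p of 0.05 in edgeR. Genes with 0 counts in every library of an organoid group (Slc26a9, Kcne2, Scnn1b, Scnn1g and Aqp5) are left out, and these were higher in tumoroids. Clca4a, Aqp7, Aqp8 and Car4, admitted through organoids alone and lower in tumoroids, are shown. Most filled points on the right lie below 0, in part through this one-sided choice. Among the 54 genes not admitted through 1 kind of culture alone, 28 were lower and 8 higher in tumoroids. Most changes on the left are within 1 of 0.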

How the data were processed

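RNA-sequencing of 9 mouse libraries was analysed. The authors aligned reads with STAR to mm10 (per the submitters' processing notes) and counted them on genes of Gencode mouse release 13. The deposited tables hold raw counts for each gene, not normalised, and TPM, which the authors derived from counts by gene length and library total. The counting tool and strand setting are not given in the sources used here. Positions are from Gencode mouse release 21.

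Counts were tested in edgeR 4.0.16 (R 4.3.3, legacy quasi-likelihood F test, TMM factors, genes with 1 TPM or more in any library). Organoid media were compared in the 6 organoid libraries with organoid number as a block, as in the study. Tumoroids were compared with each organoid group in all 9 libraries without a block. A gene passed at a Benjamini-Hochberg adjusted p under 0.05. Standard errors are the log2 fold change over the root of F, and 95% intervals use the test's degrees of freedom. Same-numbered organoid libraries deviated together from their group means (r = 0.546, 0.338 and 0.547). Tumoroids were only weakly related to organoids of the same number (r = -0.07 to 0.20). Tumoroid 1 was closest to its own number in both media, tumoroid 2 only in T-cM and tumoroid 3 in neither. The study describes the sequenced tumoroids as the source of the matching T-cM.

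limma 3.58.1 (voom, and log2(TPM + 1) and log2(TPM + 0.1)), DESeq2 1.42.0, other scalings, filters, blocks and sample sets were alternatives. Other list genes were named by the smallest p (up to 3 per list against tumoroids and up to 2 between media, WT-cM as reference), of which 1 is not reported here; Slc26a9, Kcne3 and the goblet and Paneth values of tumoroid 2 were added after values were seen. Members, lists and markers were chosen with earlier results of these data known. The test was run on simulated counts first. Promoters are from RefSeq (GRCm38.p6), which held 6 of the 8 members. Python 3.11.15 made the summaries. Bounds and detection limits use 3 counts per library and cover counting error only.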

Additional observations from a re-analysis of the deposited data

How the results depend on the processing

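In tumoroids against either organoid group, Slc12a2, Kcnq1, Ano1, Slc26a3, Slc26a6 and Slc9a3 kept their direction and passed in 17 of 17 alternatives. Kcnn4 passed in 3 of 17 (WT-cM) and 7 of 17 (T-cM), with the replicate block among them (adjusted p = 0.0162 and 0.00605), and 7 members passed under that block in each comparison. The block changed no other member's call. Cftr never passed, but its log2 change turned sign against WT-cM with upper-quartile factors (0.10), no TPM filter (0.00015), TPM + 1 (0.50), TPM + 0.1 (0.51) and between -0.15 and 0.13 when 1 library was left out. Against T-cM it turned with DESeq2 (-0.014), RLE factors (-0.014), only the 6 libraries (-0.019) and between -0.10 and 0.18 when 1 library was left out. Between organoid media, 0 members passed (4 in the report) with TPM + 1, TPM + 0.1 (3 at an unadjusted p under 0.05), no replicate block, and all 9 libraries without the block (1 unadjusted); 1 passed with the fold threshold and 0 to 5 when 1 pair was left out. There Cftr lay between -0.11 and 0.018 and Slc12a2 between -0.15 and 0.42. Of the transport lists, 17 genes passed between media, 7 in voom, 10 in DESeq2, 0 on either TPM scale (15 unadjusted), 0 with no replicate block, 0 with all 9 libraries (2 unadjusted), 2 with the fold threshold, and 28, 0 and 6 without replicate 1, 2 and 3. Over all genes 816 were higher and 818 lower, and 0 without the block (904 unadjusted). The balance in tumoroids was 5.56 from Cftr and Slc12a2 against Slc26a3 and Slc9a3. The cause of these shifts was not tested. Counted over list genes at 1 TPM or more in both kinds of culture, chosen after seeing the data, 36 passed against each organoid group (46 of all list genes) and 16 between media. At 3 counts a library, levels under 0.103 to 0.204 CPM could not be told from 0.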
